A study of Mus musculus with 36 samples.

Results

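Myeloperoxidase (MPO) activity was high, at 0.4 U per mg or more, in 12 siRNA-dosed mice and low, under 0.25 U per mg, in 9, and distal colon expression was compared between these 21 animals of the 36 in the series. The limits were applied to the activity that the labels give for each animal, so activity chose the classes and array values did not. The 6 siRNA-dosed animals between the limits formed a middle class that stayed in the model, and the 9 animals labelled Control stayed out of it. All animals, Control included, are labelled with 5% dextran sulfate sodium (DSS), a compound given to mice to injure the colon epithelium; the series' design text names only the siRNA-dosed animals, so what Control received is not settled here. The siRNAs were given intrarectally and were an unmodified siRNA against Tnf (siTNF, 6 mice), one against Tnf that carried O-methyl nucleotides (siTNF-OMe, 6 mice), one against Tnf whose modification is labelled O-methyl-propanediol (siTNF-OMe-P, 8 mice) or a scrambled sequence (7 mice). Strain, sex, age and siRNA dose are not given in the sources used here. Each animal had 1 Affymetrix array, and all values are log2 signals.

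Myeloperoxidase is the peroxidase of the primary granules of neutrophils, where it turns hydrogen peroxide and chloride into hypochlorous acid. Its activity in tissue is widely used as a measure of neutrophil infiltration in mouse colitis. Granule proteins such as MPO, neutrophil elastase and cathepsin G are made in the bone marrow while the cell matures, so a mature neutrophil in tissue carries the enzyme with little of its mRNA, whereas genes such as S100a8, Cxcr2 and Il1r2 are transcribed in mature neutrophils.

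MPO activity averaged 0.745 ± 0.317 U per mg in the high class and 0.144 ± 0.084 in the low class (SD, n = 12 and 9). The high class ran from 0.423 to 1.35 with a median of 0.673, and the low class from 0.031 to 0.238 with a median of 0.199. The middle class lay between 0.27 and 0.393, so the nearest animals on either side of the upper limit were at 0.423 and 0.393 and those on either side of the lower limit at 0.27 and 0.238. Control animals ran from 0.009 to 0.088. High MPO animals were found in every siRNA group: 3 scrambled, 2 siTNF, 3 siTNF-OMe and 4 siTNF-OMe-P, against 1, 4, 1 and 3 low MPO animals in the same order. The classes were spread unevenly over the 3 amplification batches, with 5, 5 and 2 high MPO arrays against 1, 3 and 5 low MPO arrays in batches 1, 2 and 3, and the 2 hybridization batches held 7 and 5 high MPO arrays against 5 and 4 low MPO arrays.

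**Figure D1:**
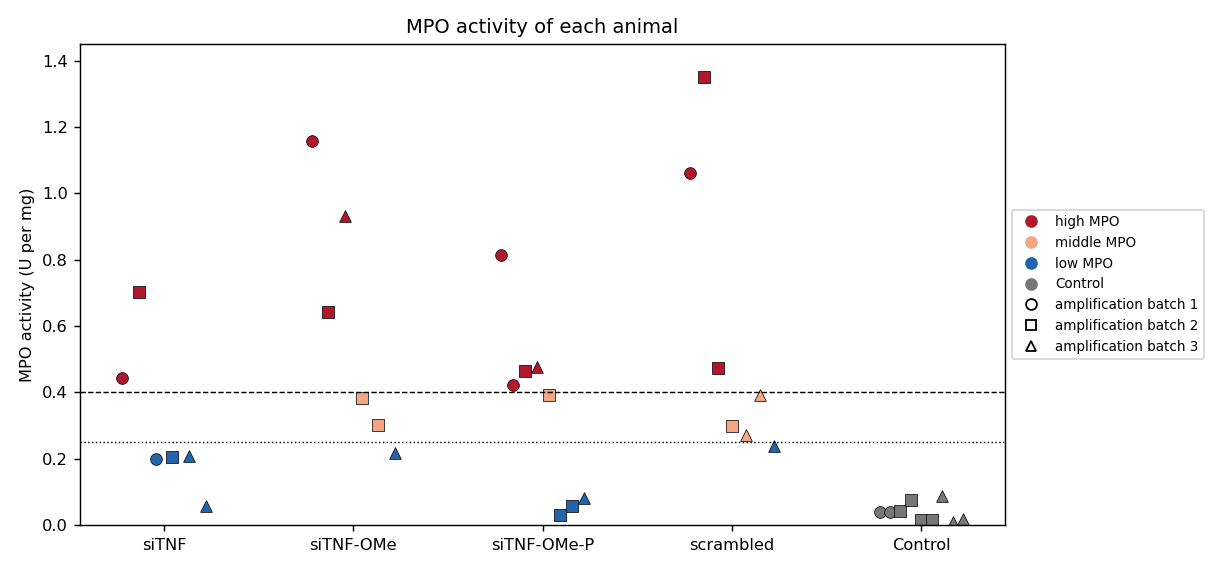
MPO activity in U per mg of each of the 36 animals by siRNA group, coloured by class with high MPO left of low MPO, with marker shapes for the amplification batch; the dashed line is the 0.4 limit and the dotted line the 0.25 limit. High MPO values run from 0.423 to 1.35 and occur in all 4 siRNA groups, low MPO values from 0.031 to 0.238.

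Colon measures differed little between the classes. Colon length, labelled in mm although the labelled weight to length ratio requires cm, was 6.16 ± 0.30 in high MPO animals and 6.04 ± 0.58 in low MPO animals (SD, n = 12 and 9), a difference of 0.11 (95% interval -0.3 to 0.52, exact permutation p = 0.593, adjusted over the 3 measures 0.889). Colon weight was 165.8 ± 11.3 mg in high MPO animals and 165.8 ± 11.3 mg in low MPO animals, a difference of -0.028 mg (-10.3 to 10.4, exact permutation p = 1.0). The weight to length ratio was 2.68 ± 0.21 in high MPO animals and 2.76 ± 0.26 mg per mm in low MPO animals, a difference of -0.076 (-0.283 to 0.14, exact permutation p = 0.474, adjusted 0.889). The two-sided tests enumerated all 293930 ways to assign 12 of the 21 animals. Control colons, for scale, were 7.2 to 8.1 long, and the high MPO colons 5.7 to 6.7 and the low MPO colons 5.2 to 7.1.

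The arrays themselves were checked before the genes. Colon epithelium was present by its transcripts: the mucin gene Muc2, which makes the gel of colonic mucus, averaged 12.71 in high MPO and 12.73 in low MPO arrays, and Krt20, a keratin of surface colonocytes, lay between 12.5 and 13.1 in high MPO and between 12.4 and 13.0 in low MPO arrays. The SD of values within an array, which narrows when signal is lost, was 1.67 to 1.81 in high MPO and 1.69 to 1.89 in low MPO arrays. It was under 1.7 in 3 high MPO arrays (siTNF replicate 3 and siTNF-OMe-P replicates 2 and 8) and 1 low MPO array (scrambled replicate 5). In Control arrays, which were not in the model, it ran from 1.55 to 1.89, and it was under 1.7 in Control replicates 4, 5, 6 and 8. The first principal component of the 27 arrays held 36.3% of the variance. In the same model as MPO class, amplification batch was called for 4249 probe sets, hybridization batch and siRNA group for 0 each. At an unadjusted p under 0.05, limma's counts for hybridization batch and siRNA group were 659 and 1331.

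No probe set passed the threshold between the classes. A linear model of MPO class, siRNA group, amplification batch and hybridization batch was fitted with limma to all 28853 probe sets, and the contrast of high over low MPO gave 0 probe sets at an adjusted p under 0.05 (0.0% called); the lowest adjusted p was 0.192. An unadjusted p under 0.05 was found for 4430 probe sets (15.4%), of which 1620 had higher (5.61%) and 2810 lower estimates (9.74%) at high MPO, where 1442.65 in both directions are expected by chance if none differed. The larger number of lower estimates was not kept in every setting: without batch terms 329 were higher and 197 lower, within amplification batch 2 alone 2060 and 1180, and with array weights 4515 and 4258. In 0 of the probe sets did the high and low MPO arrays separate without overlap. With 1 probe set for each of 19938 named genes, 5.38% of genes had higher and 12.3% lower estimates at that unadjusted threshold, and the median estimate over all genes was 0.006 log2. These shares are the background for each count of list members below from this model. Counts from other fits have other shares of all genes. Without siTNF replicate 3 the shares were 1.73% higher and 2.94% lower, and without the dosed arrays of SD under 1.7 0.782% and 1.14%. Without batch terms they were 1.3% and 0.818%. Without siTNF-OMe-P replicate 8, 623 probe sets were higher and 1295 lower, 6.65% in both directions. All list counts use the unadjusted threshold, and in this model none of the genes named below passed the adjusted one. Every estimate is the log2 difference of high minus low MPO from the model with its SE, and with a median SE of 0.084 and 18 residual degrees of freedom the number of arrays limits what could be detected.

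The unadjusted count depended on the model and on single arrays. Without siTNF replicate 3, a high MPO array, 1203 probe sets were below 0.05, without siTNF-OMe-P replicate 8, also high MPO, 1918, and without either batch term 526. Left out in turn, siTNF-OMe replicate 6 (high MPO) and scrambled replicate 5 (low MPO) gave 8156 and 6767. Leaving out the 4 dosed arrays with an SD under 1.7 gave 604. Of the 76 named genes with an unadjusted p under 0.05, 21 were no longer under it without siTNF replicate 3 and 44 without the 4 narrow arrays. In 28 of the 76 the estimate was more than 1.5 times smaller without siTNF replicate 3.

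**Figure D2:**
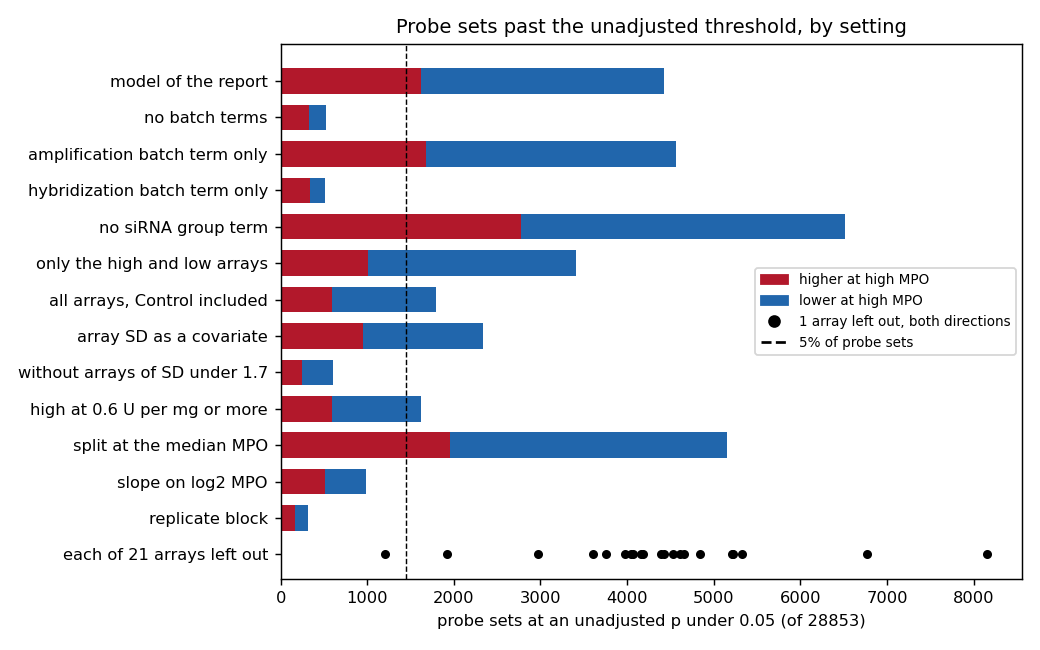
Number of probe sets of 28853 at an unadjusted p under 0.05 (horizontal axis) in the model of the report and under 12 other settings (bars, higher at high MPO in red and lower in blue), with the counts after leaving out each of the 21 arrays as points; the dashed line marks 5% of probe sets. The model of the report has 4430, the fit without batch terms 526, and the single-array points run from 1203 to 8156.

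The array signal of Mpo itself had the same median in both classes. Mpo (probe set 10380174) had a lowest, median and highest signal of 6.80, 7.00 and 7.30 in high MPO arrays, against 6.77, 7.00 and 7.27 in low MPO arrays and 6.63, 6.96 and 7.71 in Control. The classes overlapped over nearly their whole range, 6 of 12 high MPO arrays lay above the low MPO median, and the estimate was 0.038 ± 0.087 (limma adjusted p = 0.798). The other genes of the primary granule gave similar values. Elane, neutrophil elastase, was at -0.002 ± 0.065, Prtn3, proteinase 3, at 0.13 ± 0.091 and Ctsg, cathepsin G, at 0.10 ± 0.087. Mpo, Elane, Prtn3 and Ctsg each had their highest signal in a Control array, at 7.71, 7.38, 7.59 and 7.76. For Mpo, Elane and Prtn3 this was Control replicate 4, and for Ctsg Control replicate 8. The SDs of these arrays, 1.55 and 1.57, were below that of every siRNA-dosed array. The part of this narrowing in the Control values was not tested. All were among the genes that a filter on dim probe sets left out. At such low signal, similar values in the classes cannot show whether these transcripts differed.

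Genes of mature neutrophils had higher estimates at high MPO. Of 27 measured members of the neutrophil list, 20 had higher and 0 lower estimates at an unadjusted p under 0.05, where 5.38% and 12.3% of all genes did, and the list's median was 0.474. S100a8, which encodes one chain of calprotectin, a zinc- and calcium-binding protein that neutrophils carry in bulk, had a lowest, median and highest signal of 8.51, 9.99 and 12.27 in high MPO arrays and of 7.66, 8.87 and 10.44 in low MPO arrays, while the 9 Control arrays lay at 6.42 to 7.73. Of the 12 high MPO arrays, 11 lay above the low MPO median, and the classes still overlapped between 8.51 and 10.44. The estimate for S100a8 was 1.60 ± 0.39, or 3.03-fold (limma adjusted p = 0.192), and that of its partner chain S100a9 was 1.32 ± 0.37. In bulk tissue, more cells of a type and more RNA per cell cannot be told apart.

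**Figure D3:**
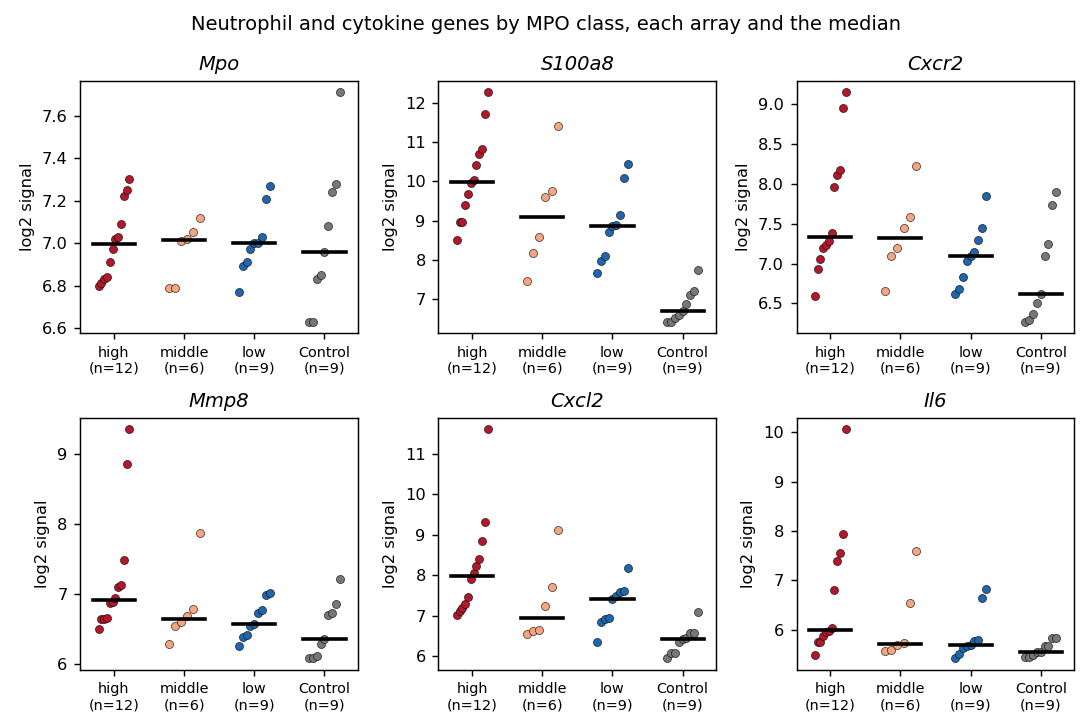
Log2 signal of 6 genes on each array (points) with the class median (line) in the high, middle and low MPO classes and in Control. Mpo has the same median of 7.00 in high and low MPO arrays, S100a8 has medians of 9.99 and 8.87, and the top points of Cxcl2 (11.61) and Il6 (10.06) in the high class are 1 array, siTNF replicate 3.

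Genes for receptors and surface proteins of the mature cell gave the next set of values. Cxcr2, the receptor for the neutrophil-attracting chemokines, was at 6.59 to 9.15 (median 7.33) in high MPO and at 6.62 to 7.85 (median 7.10) in low MPO arrays, with an estimate of 0.92 ± 0.20. The low ends of the classes were close, and 5 of the 12 high MPO arrays lay above the highest low MPO array. Il1r2, the decoy receptor for interleukin 1, was at 7.63 to 11.70 (median 8.69) in high MPO and 7.29 to 8.85 (median 7.90) in low MPO arrays, with an estimate of 1.30 ± 0.31. Among the other surface proteins, the estimates were 0.93 ± 0.21 for Clec4e and 0.85 ± 0.21 for Clec4d, C-type lectins of myeloid cells, 0.74 ± 0.20 for Trem1, an amplifier of inflammatory signals, 0.46 ± 0.12 for Csf3r, the receptor of granulocyte colony-stimulating factor, and 0.42 ± 0.12 and 0.33 ± 0.099 for the integrin chains Itgam and Itgb2. Without siTNF replicate 3 the estimates were 0.85 for Il1r2, 0.54 for Clec4e, 0.55 for Clec4d and 0.45 for Trem1, all still below an unadjusted p of 0.05. Ly6g, the gene of the antigen used to sort mouse neutrophils, was at 0.11 ± 0.065, with 12.78 to 13.25 in high MPO and 12.79 to 13.19 in low MPO arrays. In Control it already lay at 11.57 to 12.43, where S100a8 lay at 6.42 to 7.73. How much of the Ly6g signal comes from neutrophils was not tested.

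Genes for proteins of the later granules and the cytosol had widely spread signals. Mmp8, neutrophil collagenase, was at 6.50 to 9.36 (median 6.92) in high MPO and at 6.26 to 7.02 (median 6.57) in low MPO arrays, with an estimate of 1.03 ± 0.26. Retnlg, a resistin-like protein of myeloid cells, was estimated at 1.15 ± 0.31, Lcn2, which sequesters bacterial iron chelators and is also made by epithelium, at 0.89 ± 0.29, Ltf, lactoferrin, at 0.93 ± 0.45, Mmp9, gelatinase B, at 0.48 ± 0.22 and Camp, the cathelicidin precursor, at 0.47 ± 0.16. For Ngp, a granule protein of maturing neutrophils, the estimate of 1.01 ± 0.35 came with medians of 6.10 in high MPO and 6.07 in low MPO arrays. A single high MPO array, siTNF replicate 3, had 10.37 for Ngp, and the rest of both classes lay at 6.92 or below. The remaining members were estimated at 0.47 ± 0.14 (Hdc, histidine decarboxylase), 0.37 ± 0.12 (Trem3), 0.25 ± 0.10 (Cd177, a surface antigen of neutrophils), 0.19 ± 0.11 (Padi4, which citrullinates histones) and 0.14 ± 0.050 (Stfa2, a stefin). Cd177 is counted among the higher members of the list, but it was highest in Control. Control arrays had 9.89 to 10.3 for it and dosed arrays at most 9.87, the reverse of S100a8. Without siTNF replicate 3 the estimates were 0.22 for Ngp, 0.21 for Mmp9, 0.10 for Camp, 0.22 for Trem3, 0.15 for Cd177 and 0.069 for Stfa2, none of them below an unadjusted p of 0.05. Ltf was 0.46 and Hdc 0.27 without it. The highest Ltf signal, 12.32, was in siTNF-OMe-P replicate 2, where S100a8 was at 8.51, the lowest of the high class.

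Which arrays carried these values could be counted. Of the 27 neutrophil genes, 19 had their highest high MPO value in siTNF replicate 3, whose MPO activity of 0.703 U per mg was near the class median and whose array SD was under 1.7. The mean signal of the 27 genes ran from 7.95 to 9.63 (median 8.20) over high MPO arrays and from 7.71 to 8.44 (median 7.92) over low MPO arrays, so the 2 classes overlapped there too. Without siTNF replicate 3, 14 of the 27 genes had higher estimates at the unadjusted threshold (1.73% of all genes did) with a median of 0.288. Without the 4 narrow arrays 6 did (0.782% of all genes), and without batch terms 10 did (1.3%). S100a8 was estimated at 1.36 without siTNF replicate 3, at 1.06 without the narrow arrays and at 1.29 without batch terms, and Cxcr2 at 0.79, 0.67 and 0.56. Neither S100a8 without the narrow arrays nor Cxcr2 without batch terms was below an unadjusted p of 0.05. S100a9, Retnlg, Itgam and Trem1 also were not below it without the narrow arrays. Within amplification batches 1, 2 and 3, with class as the only term, S100a8 was estimated at 1.11, 1.56 and 1.64.

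**Figure D4:**
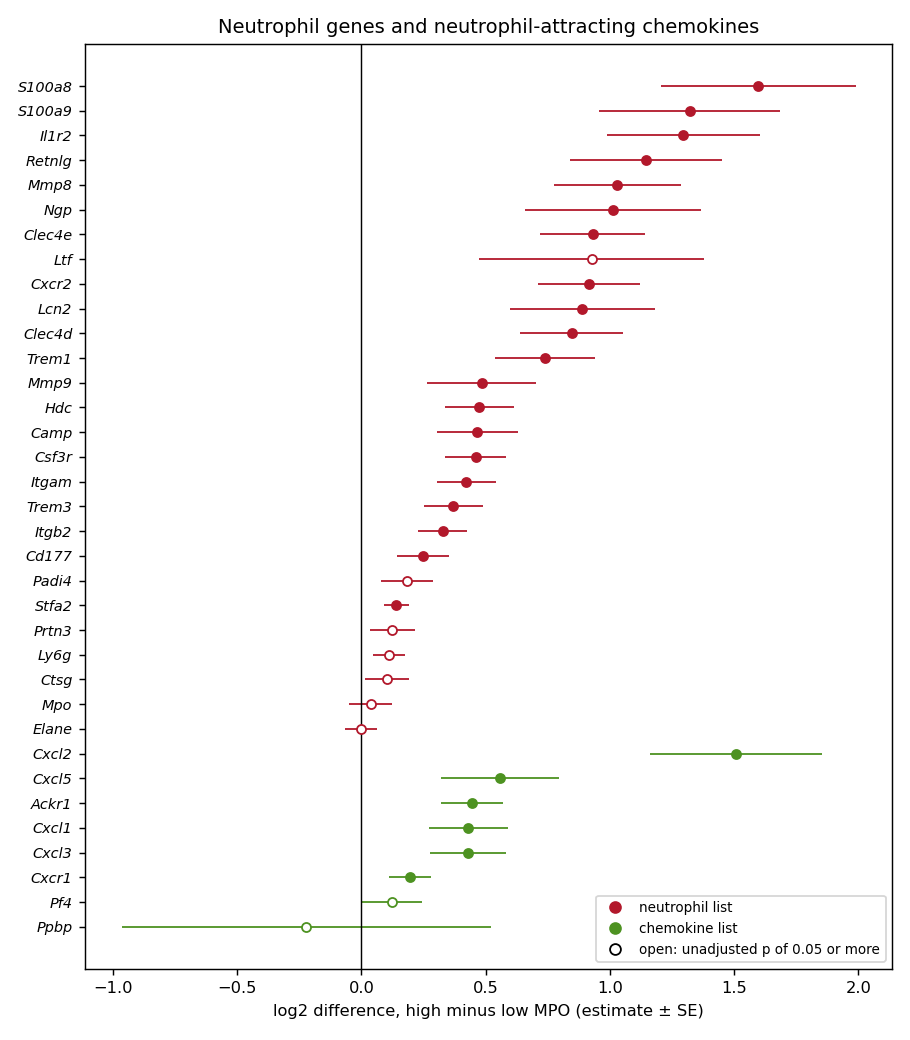
Estimated log2 difference of high minus low MPO with its SE (bars) for the 27 measured neutrophil genes (red) and the chemokine-list genes not already among them (green); filled points are below an unadjusted p of 0.05. S100a8 lies at 1.60, Cxcl2 at 1.51 and the primary granule genes Mpo and Elane at 0.038 and -0.002.

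Of the 9 measured neutrophil-attracting chemokines and receptors, 7 had higher and 0 lower estimates at the unadjusted threshold, against 5.38% and 12.3% of all genes, with a median of 0.431. Cxcl2, a CXC chemokine that binds Cxcr2 and draws neutrophils out of the blood, was at 7.01, 7.98 and 11.61 (lowest, median, highest) in high MPO arrays, against 6.34, 7.42 and 8.17 in low MPO arrays and 5.95 to 7.10 in Control. High MPO arrays reached higher, but only 8 of 12 lay above the low MPO median. The estimate was 1.51 ± 0.35, and 0.97 without siTNF replicate 3, which held the value of 11.61. Without that array the list had 3 higher, and without the narrow arrays or without batch terms 2. Cxcl5, made by epithelium, was estimated at 0.56 ± 0.24, Cxcl1 at 0.43 ± 0.16 and Cxcl3 at 0.43 ± 0.15, while the medians of Cxcl1 were 8.72 in both classes. Ackr1, which carries chemokines across venules, was at 0.45 ± 0.12 and Cxcr1 at 0.19 ± 0.084. With siTNF replicate 3 left out, Cxcl1 was at 0.13, Cxcl3 at 0.088, Cxcl5 at 0.51 and Cxcr1 at 0.13, none below an unadjusted p of 0.05. The platelet chemokine genes were at -0.22 ± 0.74 for Ppbp and 0.12 ± 0.12 for Pf4. For Ppbp, 4 high MPO and 2 low MPO arrays lay above 9, up to 10.92 in high MPO and 10.87 in low MPO. Apart from siTNF replicate 3, these arrays had 8.03 to 12.24 for Lor, loricrin of cornified epithelium. In siTNF replicate 4 Lor was 8.51 and Ppbp 6.85. How much of the Ppbp signal comes from platelets was not tested.

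Il6, interleukin 6, which drives the acute-phase response, was at 5.48, 6.00 and 10.06 in high MPO arrays and at 5.42, 5.69 and 6.83 in low MPO arrays, with Control at 5.45 to 5.84. In 11 of 12 high MPO arrays it lay above the low MPO median, and the estimate was 1.44 ± 0.37, or 0.87 without siTNF replicate 3 and 0.57 without the narrow arrays. Of 14 inflammatory cytokine genes, 11 had higher and 1 lower estimates at the unadjusted threshold, with a median of 0.269. Il1b and Il1a, the interleukin 1 genes, were at 1.20 ± 0.32 and 1.05 ± 0.27, Il11, a cytokine of stromal cells, at 0.95 ± 0.41 and Lif at 0.44 ± 0.11; these 4 were named after their values were seen. The lower one was Il18, which epithelial cells make, at -0.51 ± 0.20, or -0.15 without siTNF replicate 3 and -0.008 without the 4 narrow arrays. Without siTNF replicate 3 the list had 6 higher and 0 lower, with Il1a at 0.51, and without the narrow arrays 0 and 0. Il11 was at 0.66 without siTNF-OMe-P replicate 8, and it was not below an unadjusted p of 0.05 when either of these arrays was left out.

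Promoter windows of Cxcl2, Il6 and S100a8 are shown because these genes had the highest estimates among the chemokines, the cytokines and the neutrophil genes. Each window is 300 bases of RefSeq sequence on GRCm38.p6, from 250 bases before the annotated start to 50 after it, 5′ to 3′ on the gene's strand: chr5:90903649-90903948 (plus strand), chr5:30012864-30013163 (plus strand) and chr3:90668821-90669120 (plus strand). The capitals mark matches on either strand to 1 form of NF-kB site, GGG, any 3 bases and then TTCC. Other forms of the site were not searched for. The searched form occurs in 1825 of 32851 such windows (5.6%). The Cxcl2 window holds it at 2 separate places, the first of which reads as a match on both strands, the Il6 window at 1, and the S100a8 window at 0; a match is a description of the letters and the factor's binding was not measured.
Cxcl2: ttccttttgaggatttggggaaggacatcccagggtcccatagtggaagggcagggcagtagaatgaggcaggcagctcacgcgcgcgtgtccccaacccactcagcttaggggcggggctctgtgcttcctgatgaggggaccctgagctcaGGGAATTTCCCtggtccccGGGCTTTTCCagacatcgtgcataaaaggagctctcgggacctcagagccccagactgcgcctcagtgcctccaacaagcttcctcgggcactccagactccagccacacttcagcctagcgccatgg
Il6: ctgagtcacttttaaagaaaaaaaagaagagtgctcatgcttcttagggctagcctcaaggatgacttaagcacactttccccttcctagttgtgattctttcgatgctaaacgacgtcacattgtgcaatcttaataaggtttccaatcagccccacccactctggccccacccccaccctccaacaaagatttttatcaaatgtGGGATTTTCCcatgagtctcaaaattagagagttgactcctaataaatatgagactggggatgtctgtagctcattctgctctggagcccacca
S100a8: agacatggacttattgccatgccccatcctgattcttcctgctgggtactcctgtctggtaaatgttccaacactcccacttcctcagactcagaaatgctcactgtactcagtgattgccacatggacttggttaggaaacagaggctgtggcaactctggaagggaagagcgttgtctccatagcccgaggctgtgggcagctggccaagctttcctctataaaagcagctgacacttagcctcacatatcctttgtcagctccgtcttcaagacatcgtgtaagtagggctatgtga

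Tnf, the target of the 3 active siRNAs, was at 8.70, 8.98 and 9.47 in high MPO arrays and at 8.36, 8.81 and 9.33 in low MPO arrays, against 7.60 to 8.67 in Control. The estimate was 0.21 ± 0.13 (limma adjusted p = 0.385). The classes overlapped almost fully, with 8 of 12 high MPO arrays above the low MPO median. Among 18 genes of TNF receptors and signalling, 3 had higher and 1 lower estimates at the unadjusted threshold and the median was 0.054. Nfkbia, the inhibitor of NF-kB that NF-kB itself induces, was at 0.42 ± 0.13, and Tradd, the adaptor of TNF receptor 1, at -0.36 ± 0.12. Nfkbia was at 0.25 and Tradd at -0.16 with siTNF replicate 3 left out, the second no longer below an unadjusted p of 0.05, and the list had 3 higher and 0 lower.

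Of the 10 genes with the smallest p among higher estimates, Cxcr2 and Clec4e are described above. Plaur, the urokinase receptor, was at 9.49, 10.01 and 10.92 in high MPO arrays and at 8.88, 9.82 and 10.21 in low MPO arrays, an estimate of 0.58 ± 0.12. Cd14, a co-receptor for lipopolysaccharide, was at 9.34, 10.41 and 11.61 in high MPO and 9.09, 10.03 and 10.63 in low MPO arrays, an estimate of 0.83 ± 0.17. In Slc15a3, a peptide and histidine transporter of lysosomes, all 12 high MPO arrays lay above the low MPO median of 9.12, with 9.13 to 10.34 in high MPO and 8.39 to 9.55 in low MPO arrays and an estimate of 0.69 ± 0.15. The same held for Icam1, the adhesion molecule that leukocyte integrins bind, at 9.01 to 10.32 in high MPO and 8.46 to 9.16 in low MPO arrays (0.57 ± 0.13). The others were Ifitm6 (1.05 ± 0.23), Mcemp1 (0.38 ± 0.086), Sod2, the mitochondrial superoxide dismutase (0.37 ± 0.080), and Klrb1b, a lectin receptor of natural killer cells (0.32 ± 0.073). Icam1 was at 0.35 and Ifitm6 at 0.67 without siTNF replicate 3.

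In the model of the report, smaller shares of the monocyte and lymphocyte lists than of the neutrophil list had higher estimates at the unadjusted threshold. The gap depended on the setting. Without the narrow arrays 4 of 22 monocyte and 3 of 18 T and NK cell genes were higher, against 6 of 27 neutrophil genes (0.782% of all genes). Without batch terms these counts were 7, 2 and 10 (1.3% of all genes). Of 22 monocyte and macrophage genes, 7 had higher and 0 lower estimates at the unadjusted threshold and the median was 0.136, with Chil3, a chitinase-like protein of activated macrophages, at 1.04 ± 0.29 and Cx3cr1, the fractalkine receptor of resident macrophages, at -0.095 ± 0.12. The mean signal of these 22 genes was 9.96 to 10.57 in high MPO and 9.78 to 10.29 in low MPO arrays. Of 17 CC and interferon-induced chemokines and their receptors, 7 were higher and 0 lower, with Ccl2, which draws monocytes, at 0.83 ± 0.20 and Ccl20 at -0.044 ± 0.11. All 12 high MPO arrays lay above the low MPO median of Ccl2, which was 8.83 to 11.06 in high MPO and 8.43 to 9.23 in low MPO arrays. Of 18 T and NK cell genes 5 were higher and 0 lower, from 0.36 ± 0.16 for the cytotoxic protease gene Gzma to -0.014 ± 0.090 for Cd3d, a chain of the T cell receptor complex. Of 14 B and plasma cell genes 0 were higher and 1 lower, Jchain, the joining chain of secreted IgA and IgM, at -0.80 ± 0.31, or -0.34 without siTNF-OMe-P replicate 8. Of 15 genes of other peroxidases, eosinophils and mast cells 1 was higher and 0 lower, Il5ra, the interleukin 5 receptor of eosinophils, at 0.25 ± 0.083. Ccl2 was at 0.50 and Jchain at -0.57 without siTNF replicate 3. Jchain was not below an unadjusted p of 0.05 without that array, nor without siTNF-OMe-P replicate 8.

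Interferon, antimicrobial and oxidase genes were mixed. The type I interferon list had 0 of 22 members past the unadjusted threshold in either direction, with a median of 0.112 and extremes of 0.51 ± 0.31 for Ifit2 and -0.11 ± 0.11 for Oas1a. Of 16 interferon gamma and antigen presentation genes 4 were higher and 0 lower. The highest was Ido1, a tryptophan-degrading enzyme, at 7.51, 9.83 and 11.70 in high MPO and 7.78, 8.51 and 9.85 in low MPO arrays (1.18 ± 0.39), and 11 of 12 high MPO arrays lay above the low MPO median. Of 17 antimicrobial and acute-phase genes 7 were higher and 0 lower, with Saa3, serum amyloid A3, at 1.03 ± 0.47 and Reg3a, an antibacterial lectin, at -0.59 ± 0.51. Of 14 genes of NADPH oxidases and nitric oxide 6 were higher and 1 lower. Nos2, the inducible nitric oxide synthase, was at 0.63 ± 0.32 and Noxo1, the organizer of the epithelial oxidase, at -0.43 ± 0.12; the phagocyte oxidase genes Ncf4, Cybb, Ncf1 and Rac2, named after their values were seen, were at 0.37 ± 0.096, 0.36 ± 0.15, 0.21 ± 0.082 and 0.20 ± 0.093. With siTNF replicate 3 left out, 3 type I interferon genes were higher, the antimicrobial and acute-phase list had 4 higher and the oxidase list 4, with Noxo1 at -0.24 and Rac2 at 0.11. Saa3 was at 0.60 without siTNF-OMe-P replicate 8, and the interferon gamma list then had 2 higher.

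Matrix-degrading and adhesion genes had higher estimates. Of 12 metalloproteinase and inhibitor genes 7 were higher and 0 lower at the unadjusted threshold, with a median of 0.382. Mmp3, stromelysin 1, was at 9.58, 10.49 and 12.18 in high MPO arrays and 8.85, 9.71 and 11.51 in low MPO arrays (1.31 ± 0.34), and Timp2, an inhibitor, at 0.003 ± 0.075. Of 16 collagen and matrix genes 4 were higher and 0 lower, from 0.93 ± 0.26 for Thbs1, thrombospondin 1, to -0.12 ± 0.10 for its relative Thbs2. Of 13 endothelial and adhesion genes 6 were higher and 0 lower, and the endothelial receptor gene Tek was at -0.056 ± 0.11. Of 15 wound repair genes 5 were higher and 0 lower, among them Ptgs2, cyclooxygenase 2, at 1.11 ± 0.37, with Anxa3 at -0.14 ± 0.082. The collagen and matrix list without siTNF replicate 3 had 2 higher and the adhesion list 4, and Ptgs2 was at 0.80, no longer below an unadjusted p of 0.05. The metalloproteinase list, which shares Mmp8 and Mmp9 with the neutrophil list, had 5 higher without that array. Without the narrow arrays the metalloproteinase and adhesion lists had 2 higher each, and without batch terms 3 and 4. Mmp3 was at 0.92 without the narrow arrays, not below an unadjusted p of 0.05.

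The 10 genes with the smallest p among lower estimates had these values. Aoc1, a diamine oxidase that breaks down histamine, was at 10.02, 11.69 and 12.19 in high MPO arrays, against 11.35, 11.85 and 12.51 in low MPO arrays and 11.84 to 12.48 in Control. Of the 12 high MPO arrays 9 lay below the low MPO median, and the 2 lowest, siTNF replicate 3 and siTNF-OMe-P replicate 8, were narrow arrays. The estimate was -0.95 ± 0.20 (1.94-fold lower, limma adjusted p = 0.192), and -0.48 without the narrow arrays. Ano1, a calcium-activated chloride channel, was at 9.06, 9.58 and 9.97 in high MPO and 9.55, 9.83 and 10.63 in low MPO arrays (-0.62 ± 0.12), with Control at 10.23 to 11.57. Sycn, syncollin, a protein of secretory granules, was at -0.71 ± 0.15, with 10.96 to 12.45 in high MPO and 11.77 to 12.77 in low MPO arrays. The rest of the 10 with the smallest p were Smim24 (-0.63 ± 0.13), the kinase-family gene Nme3 (-0.50 ± 0.10), the clock repressor gene Nr1d1 (-0.56 ± 0.12), the folate transporter gene Slc46a1 (-0.78 ± 0.17), the mitochondrial adenylate kinase gene Ak3 (-0.39 ± 0.086), Sema4g (-0.88 ± 0.19) and Itih5 (-0.60 ± 0.13). Sema4g was at -0.58 without siTNF replicate 3.

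**Figure D5:**
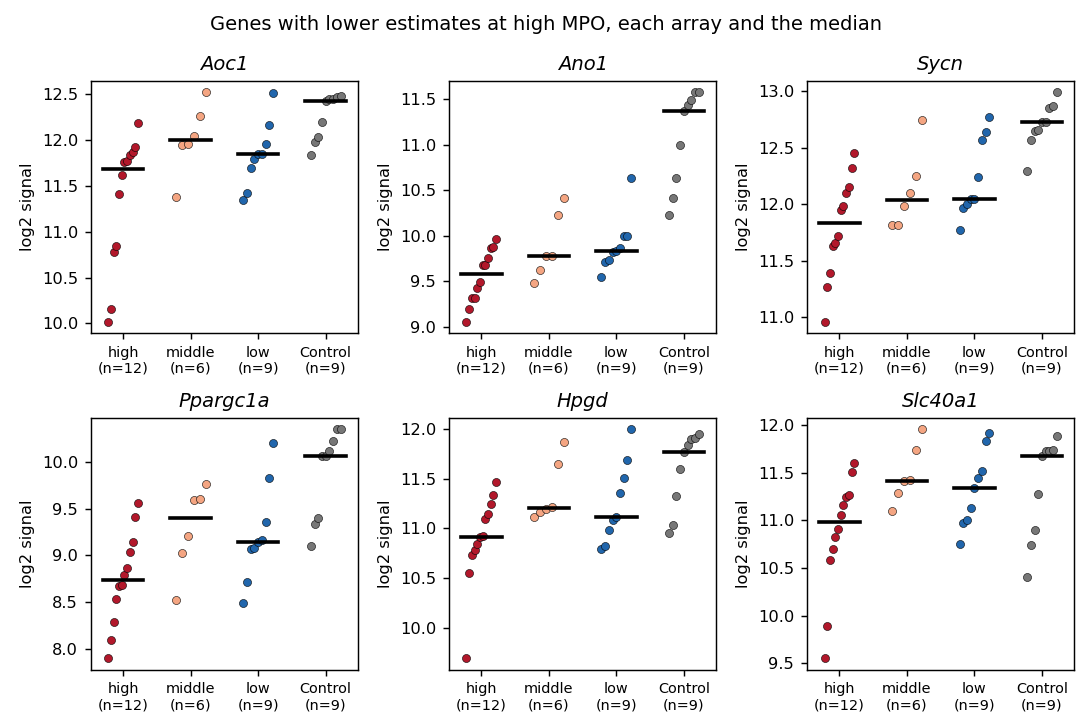
Log2 signal of 6 genes with lower estimates at high MPO on each array (points), with the class median (line) in the high, middle and low MPO classes and in Control. Aoc1 has medians of 11.69 in high and 11.85 in low MPO arrays, and its 2 lowest points, 10.02 and 10.16, are high MPO arrays.

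Of 28 colonocyte transport and metabolism genes, 12 had lower and 1 higher estimates at the unadjusted threshold, where 12.3% and 5.38% of all genes did, and the median was -0.252. Ppargc1a, the coactivator of mitochondrial genes, was at 7.90, 8.74 and 9.56 in high MPO and 8.49, 9.14 and 10.20 in low MPO arrays (-0.76 ± 0.17), with 10 of 12 high MPO arrays below the low MPO median. Slc9a3, a sodium and proton exchanger, had the highest estimate, 0.36 ± 0.32. The butyrate transporter genes Slc16a1 and Slc5a8 were at -0.44 ± 0.12 and -0.55 ± 0.17, the fatty acid oxidation gene Acadm at -0.40 ± 0.11 and the carbonic anhydrase gene Car2 at -0.68 ± 0.21; these 4 were named after their values were seen. Without siTNF replicate 3 the list had 6 lower (2.94% of all genes were), without siTNF-OMe-P replicate 8 it had 8, without the narrow arrays 1 (1.14%) and without batch terms 1 (0.818%). Slc5a8 was at -0.26 without siTNF replicate 3 and no longer below an unadjusted p of 0.05. Of 16 tight junction and keratin genes 6 were lower and 1 higher, with Cldn23, a claudin, at -0.32 ± 0.16 and Krt20 at 0.16 ± 0.074, and without siTNF replicate 3 the list had 0 lower.

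Other epithelial, stress and metabolic lists were counted in the same way. Of 16 goblet cell genes 1 was higher and 3 lower, from St6galnac1, a sialyltransferase of mucin, at 0.22 ± 0.085 to Atoh1, the secretory lineage factor, at -0.66 ± 0.23. Of 15 crypt stem cell and Wnt genes 1 was higher, Olfm4 at 0.36 ± 0.16, and 2 lower, with Znrf3, which removes Wnt receptors, at -0.29 ± 0.087. Of 22 cell cycle genes 0 were higher and 2 lower, with the mitotic kinase gene Plk1 at -0.46 ± 0.12 and Bub1b at 0.089 ± 0.065. Of 13 endoplasmic reticulum stress genes 0 were higher and 2 lower, with Ern2, the epithelial stress sensor, at -0.33 ± 0.12 and the chaperone gene Hspa5 at 0.073 ± 0.091. Of 13 hypoxia and glycolysis genes 4 were higher and 1 lower, from 0.56 ± 0.20 for Pfkfb3 to -0.45 ± 0.25 for Ankrd37. Of 12 prostaglandin and leukotriene genes 5 were higher and 2 lower, and the lowest was Hpgd, which inactivates prostaglandins, at -0.61 ± 0.16, opposite in sign to Ptgs2, which starts their synthesis. Of 11 iron and haem genes 3 were higher and 1 lower, Slc40a1, the iron exporter ferroportin, at -0.77 ± 0.21, or -0.18 without the narrow arrays. In the fit that left out siTNF replicate 3, Slc40a1 was at -0.46, Plk1 at -0.30, Atoh1 at -0.32, Olfm4 at 0.066 and Ern2 at -0.26, the last 3 no longer below an unadjusted p of 0.05. The goblet cell list then had 1 higher and 1 lower, the stem cell list 0 and 2, the cell cycle list 0 and 1, the endoplasmic reticulum stress list 0 and 0, the hypoxia list 2 and 1, and the prostaglandin list 4 and 1. Without siTNF-OMe-P replicate 8, St6galnac1 was at 0.15 and the goblet cell list had 0 higher.

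Lists tied to the siRNA itself and to bacteria were read the same way. Of 17 genes of RNA sensing and RNA interference, 1 was higher, the single-stranded RNA receptor gene Tlr8 at 0.14 ± 0.062, and 5 were lower, with Prkra, a partner of Dicer, at -0.46 ± 0.15. Of 15 bacterial sensing genes 5 were higher and 0 lower, and Tlr1 was at -0.42 ± 0.21. Of 12 genes of granulopoiesis and neutrophil survival 3 were higher and 1 lower, Il17rc, a chain of the interleukin 17 receptor, at -0.30 ± 0.088. The RNA list without siTNF replicate 3 had 0 higher and 0 lower, with Prkra at -0.23 and Tlr8 at 0.12, and the bacterial sensing list 2 higher. Tlr8 was at 0.086 without siTNF-OMe-P replicate 3.

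Markers of other tissues that a colon sample can hold were counted beside these results. Of 20 squamous epithelium genes 0 passed the unadjusted threshold, but their mean signal ran from 7.40 to 10.22 over high MPO and from 7.34 to 9.39 over low MPO arrays, against 7.20 to 7.80 in Control, and Lor, loricrin of cornified epithelium, reached 12.24 in high MPO and 10.28 in low MPO arrays. Of 12 smooth muscle genes 0 were higher and 3 lower, with Smtn, smoothelin, at -0.36 ± 0.081 and Smpx at 0.11 ± 0.12, and their mean was 11.46 to 11.72 in high MPO and 11.58 to 11.74 in low MPO arrays. Of 13 enteric neuron and glia genes 2 were higher and 0 lower, with the neuropeptide gene Vip at 0.32 ± 0.11 and S100b at -0.028 ± 0.054. Of 14 enteroendocrine and tuft cell genes 0 passed in either direction, with Tph1, the enzyme of serotonin synthesis, at 0.25 ± 0.20 and the peptide gene Pyy at -0.087 ± 0.079. Of 10 adipocyte genes 1 was higher and 1 lower, with Retn, resistin, at 0.54 ± 0.28 and Pparg at -0.22 ± 0.095, and without siTNF replicate 3 the list had 0 and 0, with Pparg at -0.16. The 2 measured red blood cell genes, Alas2 and Slc4a1, were at 0.21 ± 0.10 and 0.11 ± 0.087. The part of these tissues in the gene differences was not tested.

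MPO activity was also taken as a number. With the slope on log2 MPO over all 27 dosed arrays in place of the classes, limma called 0 probe sets and 984 were at an unadjusted p under 0.05; among named genes 1.95% had higher and 2.0% lower slopes. Of the 27 neutrophil genes 15 had positive slopes at that threshold and 0 negative. For each doubling of MPO activity, the slope was 0.49 ± 0.15 log2 for S100a8, 0.47 ± 0.13 for Cxcl2, 0.48 ± 0.13 for Ido1, 0.27 ± 0.067 for Cd14, -0.004 ± 0.030 for Mpo and -0.29 ± 0.087 for Aoc1. The middle class shares the low MPO arrays with the main contrast, and its estimates over low MPO were 0.61 for S100a8, 0.68 for Cxcr2, 0.57 for Cxcl2, -0.12 for Ano1 and -0.074 for Aoc1.

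Within the siRNA groups, class means without any model term did not all point the same way, and no test was made on groups with 1 to 4 animals a class. The scrambled and siTNF-OMe groups each held 1 low MPO animal, so their low MPO values here are single values. S100a8 averaged 9.97 in 3 high MPO animals given scrambled siRNA, against 7.96 in the 1 low MPO animal. S100a8 averaged 10.62 in high MPO and 8.64 in low MPO animals with siTNF, and 10.22 and 8.97 with siTNF-OMe-P. With siTNF-OMe it averaged 9.81 in 3 high MPO animals, against 10.44 in the 1 low MPO animal. Il6 and Cxcl2 also had lower means in the high MPO animals of the siTNF-OMe group, 6.08 against 6.83 for Il6 and 7.71 against 8.17 for Cxcl2, where the other 3 groups had higher means. Mpo was 6.90 in the high MPO animals and 7.21 in the 1 low MPO animal of the scrambled group. The high and low MPO values were 7.01 and 6.91 with siTNF, 7.01 and 7.27 with siTNF-OMe, and 7.09 and 6.98 with siTNF-OMe-P. Aoc1 had lower means at high MPO in all 4 siRNA groups, by 0.65 in the scrambled group, 1.05 with siTNF, 0.09 with siTNF-OMe and 0.42 with siTNF-OMe-P.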

How the data were processed

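Distal colon RNA of 36 mice was amplified as whole transcriptome from 25 ng and hybridized to 1 Affymetrix array per animal, per the labels' protocols. The authors deposited 1 table of log2 values for 28853 probe sets, which the submitters' processing notes link to Partek and RMA without versions; none of the sources used says whether they removed batch effects. Of these probe sets, 21789 had 1 gene symbol, 1621 several and 5443 none in the platform annotation, and 19938 genes were named. No value was filtered or transformed. The labels do not say that animals came from separate cages or cohorts, so p-values measure the spread between these animals.

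Arrays of 27 siRNA-dosed animals were fitted with limma 3.58.1 in R 4.3.3: MPO class (high, middle, low), siRNA group, amplification batch and hybridization batch, empirical Bayes with trend, two-sided, Benjamini-Hochberg over all probe sets, threshold 0.05. The fit was tested on simulated data. A gene with several probe sets was given by the one with the highest mean over the 27 arrays (of the named genes, Irf1 and Ppargc1a have 2). Colon measures were compared by exact permutation in Python 3.11.15 with NumPy 2.4.6 and pandas 2.3.3, and figures were drawn with matplotlib 3.10.9. Signal over background and the number of arrays, not read depth, limit precision here.

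Named were Mpo, Tnf, the measured neutrophil and chemokine list members, the 10 smallest p per direction, and the highest and lowest estimate of each list. The comparison, its members and the 35 gene lists were chosen with earlier results of these data known. The count at an unadjusted p, the fits within amplification batches with class as the only term, the fit with neither siRNA nor batch terms, and the list counts with arrays left out were chosen after seeing the data. Other alternatives changed the batch and siRNA terms, scaling, filters, array weights, MPO limits and arrays included. Same-numbered animals were not paired in the model of the report. Over 37 same-number pairs the median correlation of deviations was 0.171 (-0.373 to 0.642), against -0.024 over pairs of different number. Of 27 arrays, 4 correlated best with their own number. Promoter windows are RefSeq's on GRCm38.p6.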

Additional observations from a re-analysis of the deposited data

Results flagged for a closer look

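Sets of values from the low and middle classes were tested for 1 animal far from the others of its class. Of 238 sets, 21 were marked, where chance marks about 1 in 20, or 11.9. The high MPO class was not tested in this way, so its arrays, siTNF replicate 3 among them, could not be marked. In the middle class, 7 of the marks fell on siTNF-OMe replicate 3, whose nearest neighbour in the class is given second in each case. It had 7.14 for Ngp (6.03), 9.44 for Itgam (8.93), 7.88 for Mmp8 (6.79) and 7.98 for Mmp9 (7.36). Its chemokine values were 9.05 for Cxcl1 (8.71), 6.67 for Cxcl3 (6.29) and 8.62 for Cxcl5 (7.33). The MPO activity of this animal, 0.384 U per mg, lay just under the limit of the high class. Also in the middle class, Reg3a was 6.45 in scrambled replicate 6 (6.2), Olfm4 was 8.31 in siTNF-OMe-P replicate 4 (7.58) and Smtn was 10.54 in scrambled replicate 7 (10.81).

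In the low MPO class, siTNF replicate 1 had 10.63 for Ano1 (nearest 10.0), 9.77 for Nme3 (9.5) and 11.96 for Nr1d1 (11.41), each the highest of the class. In siTNF replicate 4, Ifit2 was 10.48 (9.71) and Oas1a 10.52 (10.16), the highest of the class, and Blk was 6.81 (7.66), the lowest. Reg3a was 11.16 in scrambled replicate 5, with the next low MPO animal at 7.68. Cxcl1 was 9.14 in siTNF-OMe replicate 5 (8.81), Gzma 7.7 in siTNF replicate 5 (6.97) and Smtn 10.64 in siTNF replicate 6 (10.86). The colon weight to length ratio was 2.13 mg per mm in siTNF-OMe-P replicate 7, with the next at 2.67.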

How the results depend on the processing

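No probe set passed the adjusted threshold in limma under the alternatives, except that array weights gave 1517 (their estimation did not reach its convergence tolerance) and leaving out 1 array at a time gave 0 to 3, with 3 without siTNF-OMe replicate 2 and 1 without siTNF-OMe replicate 6. The count at an unadjusted p under 0.05, 4430 in the model of the report, was 526 without batch terms, 516 with the hybridization term alone and 968 with neither siRNA nor batch terms. Within amplification batches 1, 2 and 3 it was 815, 3240 and 917 (299 higher and 516 lower, 2060 and 1180, 248 and 669), and within hybridization batches 1 and 2 it was 340 and 454, with fewer arrays in each. It was 1791 with Control included, 2338 with array SD as a covariate, 604 without the arrays of SD under 1.7, 8773 with array weights, 1620 with the high class at 0.6 U per mg or more, 984 for the slope on log2 MPO and 261 with a log2 difference of at least 0.5. Leaving out 1 array at a time gave 1203 to 8156. With the replicate block, which takes the replicate number in place of the batch terms, it was 311. In that fit S100a8 was at 0.90, Cxcr2 at 0.36, Cxcl2 at 0.69 and Il6 at 0.58, none below an unadjusted p of 0.05. The cause of these shifts was not tested. Of the 115 named genes, 72 kept their sign in all alternatives run for them and 43 changed it in at least 1 (46 alternatives for 85 genes, and 45 for the 30 genes that the filter on dim probe sets left out); the colon measures stayed on the same side of the threshold throughout. Signal over background limits genes near the low end of the scale, such as Mpo and Il6.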

Other observations

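MPO activity and the S100a8 signal did not rank the single animals named here alike. No rank measure over all animals was computed, and the S100a8 slope over all dosed arrays, given above, was positive. The high MPO animal with the highest activity, scrambled replicate 2 at 1.35 U per mg, had 10.83 for S100a8, while siTNF replicate 3 at 0.703 had 12.27 and siTNF-OMe-P replicate 3 at 0.463 had 11.71. In the middle class, siTNF-OMe replicate 3 at 0.384 had 11.41, and in the low class, siTNF-OMe replicate 5 at 0.217 had 10.44.

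Different high MPO animals led different gene lists. Of 22 type I interferon genes, 15 had their highest high MPO value in scrambled replicate 2. Of 22 cell cycle genes, 15 had it in siTNF-OMe-P replicate 1, and of 20 squamous epithelium genes, 11 had it in that array and 8 in siTNF-OMe-P replicate 2.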
